A study of Mus musculus with 16 samples.

Results

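Collagen is folded in the endoplasmic reticulum (ER) with the help of chaperones and hydroxylases, and 10 genes of this machinery are described here in mouse suprarenal aorta: the collagen chaperone Serpinh1, the prolyl 4-hydroxylase alpha subunits P4ha1, P4ha2 and P4ha3, the lysyl hydroxylases Plod1, Plod2 and Plod3, and the prolyl 3-hydroxylation complex of P3h1, Crtap and Ppib. They were taken by gene symbol and are 10 of the 29695 gene rows of the count table. All 10 passed the low-count filter, with 15984 genes tested in all. RNA was measured by poly-A sequencing in 4 groups of male mice, with 4 libraries in each group that the labels call biological replicates. The groups were Vamp8 knockout mice (KO, Vamp8-/-) infused with angiotensin II (AngII), KO mice infused with saline, C57BL/6 wild-type (WT) mice infused with AngII, and WT mice infused with saline. AngII, a peptide that raises blood pressure, was given at 1000 ng/kg/min for 5 days, and every mouse carried a subcutaneous osmotic minipump. The knockout was not stated to be limited to a cell type, vessels with a wall haematoma or visible damage had been left out by the submitters, and tissue around the vessel had been removed.

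Collagen chains are modified and folded in the ER before they leave the cell. Prolyl 4-hydroxylases stabilise the triple helix, lysyl hydroxylases prepare lysines for sugar attachment and for cross-links between collagen molecules, and the complex of P3h1, Crtap and Ppib modifies prolines at particular sites and assists folding. HSP47, the product of Serpinh1, binds the folded triple helix and goes with it towards the Golgi. In the aorta smooth muscle cells of the media and fibroblasts of the adventitia make most of the fibrillar collagen.

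Promoter windows from RefSeq, on GRCm38.p6, were found for 9 of the 10 genes, each running from 250 bases before to 50 bases after a listed start site. P3h1 had more than one window, so that there were 10 windows. Those of Serpinh1 (chr7:99353190-99353489, minus strand), P4ha1 (chr10:59323046-59323345, plus strand) and P3h1 (chr4:119232665-119232964, plus strand, the first of its windows) are printed 5′ to 3′, since these genes had lower RNA in KO than in WT aortae of saline-infused mice. Capitals mark the hypoxia response core ACGTG and the CCAAT box, on either strand.
Serpinh1: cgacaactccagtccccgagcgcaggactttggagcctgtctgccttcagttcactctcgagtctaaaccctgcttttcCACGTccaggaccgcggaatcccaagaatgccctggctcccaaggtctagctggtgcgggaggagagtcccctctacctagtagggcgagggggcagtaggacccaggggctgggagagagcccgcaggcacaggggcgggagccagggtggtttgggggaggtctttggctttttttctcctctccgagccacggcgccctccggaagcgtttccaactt
P4ha1: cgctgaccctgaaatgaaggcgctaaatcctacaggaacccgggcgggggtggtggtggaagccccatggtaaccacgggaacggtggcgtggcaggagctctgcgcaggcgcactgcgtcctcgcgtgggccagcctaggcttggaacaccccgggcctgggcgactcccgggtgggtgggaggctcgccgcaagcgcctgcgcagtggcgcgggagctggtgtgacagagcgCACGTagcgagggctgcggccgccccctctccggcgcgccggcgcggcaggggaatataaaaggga
P3h1: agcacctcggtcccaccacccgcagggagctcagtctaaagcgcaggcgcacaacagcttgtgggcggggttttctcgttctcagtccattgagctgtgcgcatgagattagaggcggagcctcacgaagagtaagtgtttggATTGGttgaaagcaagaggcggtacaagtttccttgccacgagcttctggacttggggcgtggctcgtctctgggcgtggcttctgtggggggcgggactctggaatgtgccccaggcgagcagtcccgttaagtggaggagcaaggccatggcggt
The letters ACGTG were found in 6 of the 10 windows, those of Serpinh1, P4ha1, P4ha2, Plod3, Ppib and the other P3h1 window, against 19.6% of the 32851 windows of the table. The letters CCAAT were found in 4 of the 10, those of Plod3, both of P3h1 and that of Ppib, against 37.4% of all windows. The heat shock core GAANNTTC was found in 1, that of Plod1, against 7.86% of all windows. A match says only that the letters are present in the window.

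Library totals were 13284804 to 21643548 reads, and the lowest count of any of the 10 genes in a library was 11, for P4ha3. Levels are given as CPM, the counts scaled to a common library total, after edgeR's TMM scaling, as mean ± SD with n = 4, and a gene is called changed at an adjusted p under 0.05 (edgeR's quasi-likelihood test, Benjamini-Hochberg over all genes tested). Vamp8, the targeted gene, had 14.1 to 26.7 CPM in KO AngII and 24.9 to 53.3 CPM in KO saline aortae, against 52.3 to 60.9 CPM in WT AngII and 45.9 to 57.2 CPM in WT saline aortae. One KO saline library, replicate 1, thus lay within the WT range. Mitochondrial genes took 30.5 ± 2.49% of the reads of KO saline libraries and 16.1 ± 6.12% of those of KO AngII libraries, against 13.4 ± 3.88% in WT saline and 12.6 ± 3.06% in WT AngII libraries. A symbol was missing for 2725 rows of the table, and these were the rows with 0 reads in all 8 WT libraries, so that a difference in how reads of the genotypes were counted cannot be told apart from genotype. Each of the 10 genes had its symbol because the set was taken by symbol, which does not show how its reads were counted. No near-identical copy was found among annotated transcripts for 7 of them, while part of Plod2, Plod3 and Ppib overlaps a gene on the opposite strand, and no source used here gives the strand setting of the counting. Plod3 also overlaps Mir702 on its own strand. Ppib further shares stretches of at least 90% identity with other genes, Msh3 (93.8% over 288 bases) and Sergef (91.4% over 429 bases) among them, so its values are uncertain to that extent.

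Serpinh1 RNA was lower in KO than in WT aortae under both infusions. Its level was 280.0, 435, 454 and 494 CPM in the 4 KO AngII libraries, against 928, 769, 1382 and 1324 CPM in the 4 WT AngII libraries. Under saline it was 233, 327, 276 and 290.0 CPM in KO, against 1118, 734, 1049 and 773 CPM in WT. Every KO library lay below every WT library. In these whole-vessel samples fewer cells of a type and less RNA per cell cannot be told apart. The level was 2.65-fold lower in KO under AngII, a log2 fold change of -1.40 (SE 0.24, adjusted p = 0.00642 by edgeR), and 3.26-fold lower in KO under saline (-1.71, SE 0.24, adjusted p = 0.00135 by edgeR). By p-value it ranked 62nd under AngII and 36th under saline among all genes tested. Both calls held without any single library, with log2 fold changes of -1.56 to -1.26 under AngII and -1.80 to -1.60 under saline. With only KO AngII and WT AngII libraries in the model, the adjusted p under AngII was 0.0613. With mitochondrial genes left out, the fold changes were -1.44 and -1.74 and both calls held.

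**Figure D1:**
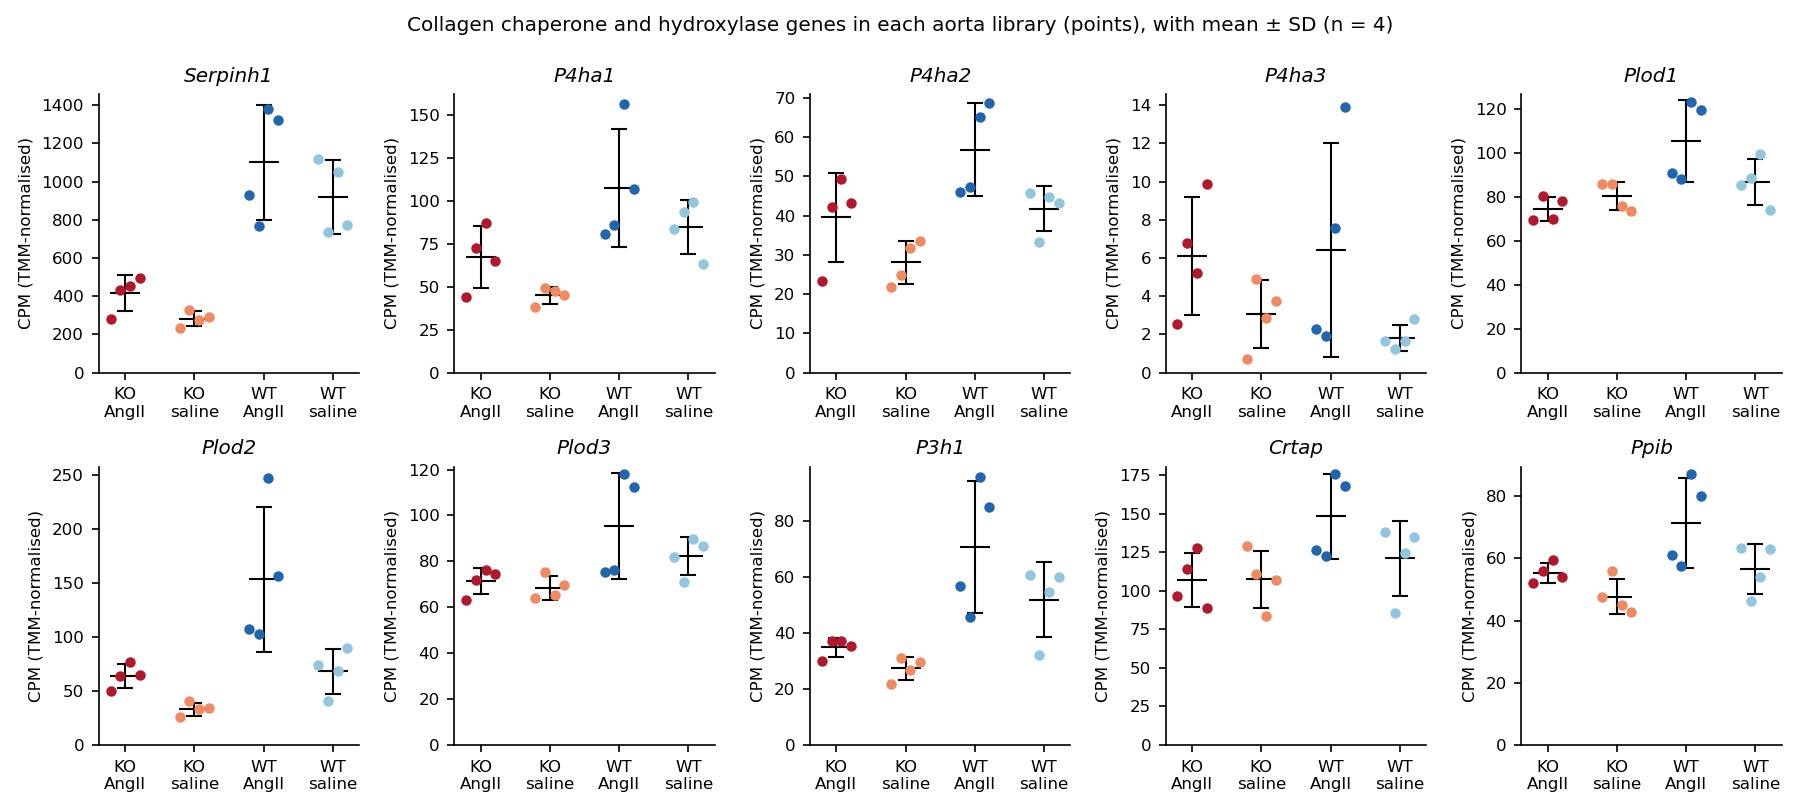
Level of each of the 10 genes (y axes, TMM-normalised CPM, each starting at 0) in the 16 libraries (points) of the 4 groups, with the group mean and SD (bars, n = 4). The KO libraries of Serpinh1 lie between 233 and 494 CPM, below the WT libraries at 734 to 1382 CPM.

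AngII did not change Serpinh1 past the threshold in either genotype. The group mean was 416 ± 93.9 CPM in KO AngII and 281 ± 38.7 CPM in KO saline aortae, a log2 fold change of 0.56 (SE 0.23, adjusted p = 0.217 by edgeR). It was 1101 ± 299 CPM in WT AngII and 918 ± 193 CPM in WT saline aortae, a log2 fold change of 0.26 (SE 0.23, adjusted p = 0.873 by edgeR). The interaction of genotype and AngII was 0.30 (SE 0.33, adjusted p = 0.704 by edgeR). The SE leaves room for a difference of either sign between the genotypes.

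Ratios of reads within a library do not depend on the scaling between libraries. Serpinh1 had 7.49 ± 1.56 reads per Ppib read in KO AngII libraries, against 15.3 ± 1.36 in WT AngII libraries. Under saline it had 5.93 ± 0.781 reads per Ppib read in KO, against 16.3 ± 3.07 in WT. The highest KO library had 9.17 and the lowest WT library 12.3, so the genotypes did not overlap. Against Crtap, Serpinh1 had 3.95 ± 1.13 and 2.69 ± 0.634 reads per read in KO AngII and KO saline libraries, against 7.33 ± 0.751 and 7.69 ± 1.33 in WT AngII and WT saline libraries. The ratio of Serpinh1 to the fibrillar collagens Col1a1, Col1a2 and Col3a1 did not separate the genotypes. Serpinh1 had 5.89 ± 0.720 reads per 100 collagen reads in KO AngII, against 5.65 ± 1.46 in WT AngII libraries. Under saline it had 6.64 ± 1.01 in KO, against 8.66 ± 2.37 in WT libraries. KO and WT libraries overlapped under both infusions in this ratio.

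**Figure D2:**
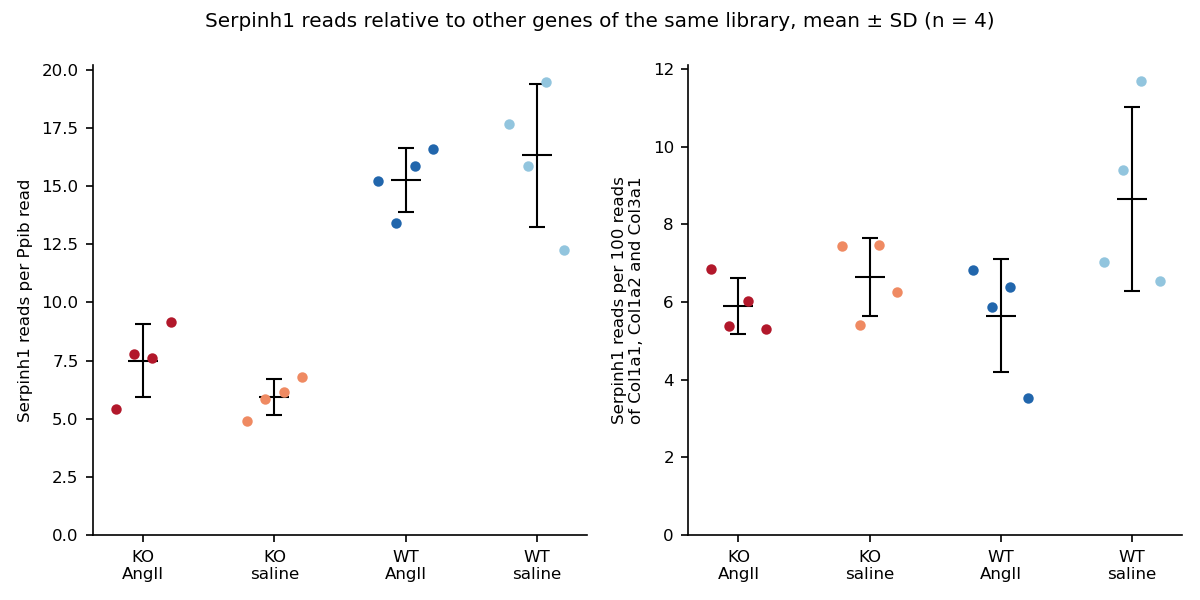
Serpinh1 reads per Ppib read (left) and per 100 reads of Col1a1, Col1a2 and Col3a1 (right) in each library (points), with mean and SD (bars, n = 4). The left ratio is at most 9.17 in KO and at least 12.3 in WT libraries, while in the right panel KO and WT libraries overlap.

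Of the prolyl 4-hydroxylase alpha subunits, the catalytic partners of P4hb, P4ha1 was lower in KO under saline. Its level was 38.2, 49.5, 47.8 and 45.1 CPM in KO saline, against 83.4, 93.4, 99.4 and 63.4 CPM in WT saline libraries, with no overlap. This was a 1.88-fold lower level in KO (log2 fold change -0.91, SE 0.23, adjusted p = 0.0460 by edgeR). The call held without KO AngII library 1, 3 or 4, WT AngII library 3 or WT saline library 2, and was lost, at adjusted p of 0.0530 to 0.124, without any other single library, KO and WT saline libraries among them. Under AngII, P4ha1 had 43.9, 72.4, 87.3 and 64.8 CPM in KO, against 81.0, 86.1, 156 and 107 CPM in WT libraries. One KO library lay within the WT range, and the log2 fold change of -0.68 (SE 0.23) was not called (adjusted p = 0.120 by edgeR).

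P4ha2, which encodes another alpha subunit of the same enzyme, was not called in any comparison. It had 39.5 ± 11.2 CPM in KO AngII and 28.1 ± 5.58 CPM in KO saline aortae, against 56.8 ± 11.8 CPM in WT AngII and 41.8 ± 5.77 CPM in WT saline aortae. Its log2 fold changes between KO and WT were -0.52 under AngII and -0.57 under saline, with adjusted p-values of 0.213 and 0.153 by edgeR. In WT mice every AngII library (46.1 to 68.6 CPM) lay above every saline library (33.3 to 45.9 CPM), while the adjusted p was 0.595 by edgeR.

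P4ha3, the least abundant of the 10 genes, had 2.52, 6.79, 5.19 and 9.87 CPM in KO AngII and 0.710, 4.92, 2.88 and 3.73 CPM in KO saline libraries. It had 2.27, 1.94, 7.55 and 13.9 CPM in WT AngII and 1.63, 1.24, 1.65 and 2.82 CPM in WT saline libraries. Both AngII groups spread more than 3-fold and overlapped their saline groups. The log2 fold change for AngII averaged over genotypes was 1.40 (SE 0.45, adjusted p = 0.166 by edgeR), and DESeq2 gave an adjusted p of 0.0416. P4ha3 was the exception among the 10 genes in the saline comparison of genotypes, with a log2 fold change of 0.73 (SE 0.65, adjusted p = 0.512 by edgeR).

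Among the lysyl hydroxylases Plod2, whose enzyme acts on the ends of collagen chains, was the gene that varied most between groups. Its level was 49.8, 64.1, 76.5 and 64.5 CPM in KO AngII, against 107, 103, 247 and 156 CPM in WT AngII libraries, with no overlap. It was 2.41-fold lower in KO under AngII, a log2 fold change of -1.27 (SE 0.28, adjusted p = 0.0361 by edgeR). That call was lost, at adjusted p of 0.0513 to 0.134, without KO AngII library 1, 2 or 4, KO saline library 3 or 4, or WT AngII library 3 or 4. With only the 2 groups compared in the model the adjusted p was 0.117. Under saline it had 25.7, 40.6, 33.0 and 33.9 CPM in KO, against 74.4, 40.4, 68.6 and 89.5 CPM in WT libraries. The lowest WT library lay just below the highest KO library, and the log2 fold change of -1.04 (SE 0.28) was not called (adjusted p = 0.0606 by edgeR). This saline difference was called under 6 of 25 alternative settings, among them DESeq2, limma voom and mitochondrial genes left out.

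Plod2 was also the gene that rose with AngII. Averaged over both genotypes it was 2.08-fold higher under AngII than under saline (log2 fold change 1.05, SE 0.20, adjusted p = 0.0214 by edgeR). Every AngII library lay above every saline library within each genotype. Within a genotype the change was not called by edgeR, with a log2 fold change of 0.94 (SE 0.28, adjusted p = 0.143) in KO and 1.17 (SE 0.28, adjusted p = 0.104) in WT. DESeq2 called it in both, with adjusted p-values of 0.0394 in KO and 0.00755 in WT. The interaction was -0.23 (SE 0.39, adjusted p = 0.818 by edgeR). The averaged call was lost, at adjusted p of 0.0503 to 0.0565, without KO saline library 3 or 4, WT AngII library 4 or WT saline library 3.

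Plod1 and Plod3, whose enzymes act on lysines along the helix, with sugar-transferring activity in the case of Plod3, varied less. Plod1 had 69.5, 80.4, 70.1 and 78.1 CPM in KO AngII, against 90.9, 88.2, 123 and 120 CPM in WT AngII libraries. The groups did not overlap, and the log2 fold change of -0.50 (SE 0.13) was not called (adjusted p = 0.0612 by edgeR). It was called under 4 of 25 alternative settings, DESeq2 and mitochondrial genes left out among them. Under saline Plod1 had 80.4 ± 6.47 CPM in KO, against 87.0 ± 10.5 CPM in WT aortae. Plod3 had 71.5 ± 5.75 CPM in KO AngII and 68.6 ± 5.19 CPM in KO saline aortae, against 95.5 ± 23.0 CPM in WT AngII and 82.3 ± 8.20 CPM in WT saline aortae. None of its comparisons was called, with adjusted p-values from 0.144 upward by edgeR.

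The make-up of the lysyl hydroxylases was compared in reads per exon length. Plod2 made up 30.4 ± 2.79% of the Plod1, Plod2 and Plod3 total in KO AngII and 18.5 ± 2.33% in KO saline libraries. In WT it made up 42.5 ± 5.55% in AngII and 28.5 ± 6.31% in saline libraries. KO lay below WT without overlap under each infusion, and AngII above saline without overlap within each genotype. The group order of the shares was the same with the median transcript length in place of the summed exon length, at 28.7%, 16.9%, 40.1% and 26.9% in KO AngII, KO saline, WT AngII and WT saline libraries. With that length the genotypes overlapped under saline, the highest KO saline library at 18.7% and the lowest WT saline library at 18.6%.

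**Figure D3:**
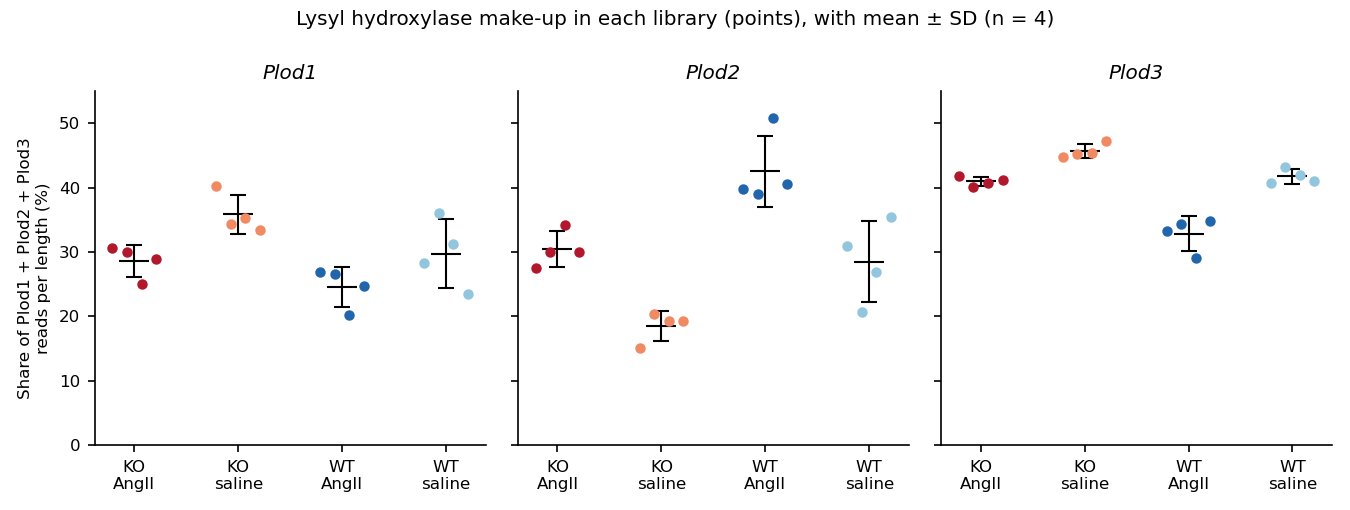
Share of each lysyl hydroxylase in the summed reads per exon length of Plod1, Plod2 and Plod3 (y axis, %) in each library (points), with mean and SD (bars, n = 4). The Plod2 share averages 30.4% in KO AngII, 18.5% in KO saline, 42.5% in WT AngII and 28.5% in WT saline libraries.

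In the prolyl 3-hydroxylation complex the enzyme P3h1 was lower in KO under both infusions, while the helper protein Crtap and the prolyl isomerase Ppib (cyclophilin B) were not called. P3h1 had 29.9, 37.1, 37.2 and 35.3 CPM in KO AngII, against 56.6, 45.5, 95.7 and 84.9 CPM in WT AngII libraries. Under saline it had 21.9, 31.0, 26.9 and 29.7 CPM in KO, against 60.7, 32.2, 54.8 and 59.9 CPM in WT libraries. The genotypes did not overlap under either infusion, although WT saline library 2 lay close to the KO libraries. P3h1 was 2.03-fold lower in KO under AngII, a log2 fold change of -1.02 (SE 0.23, adjusted p = 0.0399 by edgeR), and 1.90-fold lower under saline (-0.92, SE 0.23, adjusted p = 0.0465 by edgeR).

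Both P3h1 calls lay near the threshold. Under AngII the call was lost, at adjusted p of 0.0528 to 0.152, without KO AngII library 1, 2 or 4, KO saline library 2, 3 or 4, or WT AngII library 3 or 4. Under saline it held without KO AngII library 4, WT AngII library 2 or 3, or WT saline library 2, and was lost, at adjusted p of 0.0514 to 0.139, without any other single library. With only the 2 groups compared in the model, the adjusted p was 0.115 under AngII and 0.0683 under saline.

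Crtap had 107 ± 17.5 CPM in KO AngII and 108 ± 18.6 CPM in KO saline aortae, against 148 ± 27.6 CPM in WT AngII and 121 ± 24.2 CPM in WT saline aortae. Its log2 fold change between KO and WT was -0.47 (SE 0.19, adjusted p = 0.185 by edgeR) under AngII and -0.17 (SE 0.19, adjusted p = 0.598 by edgeR) under saline. Ppib had 55.3 ± 3.29 CPM in KO AngII and 47.7 ± 5.74 CPM in KO saline aortae, against 71.4 ± 14.4 CPM in WT AngII and 56.6 ± 8.12 CPM in WT saline aortae. Its log2 fold changes were -0.37 and -0.25, with SE 0.15 each. P3h1 had 0.330 ± 0.0459 reads per Crtap read in KO AngII, against 0.466 ± 0.0752 in WT AngII libraries. Under saline it had 0.262 ± 0.0648, against 0.424 ± 0.0324, and only the saline libraries of the genotypes did not overlap.

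Per kb of summed exon length, Serpinh1 was the most abundant of the 10 genes in every group and Crtap the second. Serpinh1 had 170 ± 38.4 CPM per kb in KO AngII and 115 ± 15.8 CPM per kb in KO saline aortae, against 451 ± 123 CPM per kb in WT AngII and 376 ± 79.1 CPM per kb in WT saline aortae. Crtap had 60.4 ± 9.87, 60.7 ± 10.5, 83.8 ± 15.6 and 68.3 ± 13.6 CPM per kb in the same order of groups. P4ha3 was the lowest in every group, at group means of 0.585 to 2.05 CPM per kb. The 7 other genes had group means of 4.50 to 28.5 CPM per kb, and their order depended on the length used.

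Counted over the 10 genes, KO AngII aortae had 3 genes called lower than WT AngII aortae (Serpinh1, Plod2 and P3h1) and 0 called higher, where 1.03% of all genes tested were called lower. KO saline aortae also had 3 genes called lower than WT saline aortae (Serpinh1, P4ha1 and P3h1) and 0 called higher, where 1.78% of all genes were called lower. With all libraries 165 genes were called lower under AngII and 284 under saline, and these counts depended on single libraries. Under AngII the count was 48 without WT AngII library 3 and 284 without KO AngII library 3, the lowest and highest with 1 library left out. Under saline it was 49 without WT saline library 1 and 1008 without WT saline library 2. Libraries of the genotypes did not overlap for 4 genes under AngII (Serpinh1, Plod1, Plod2 and P3h1) and for 3 under saline, all lower in KO, against 4.8% and 5.94% of all genes that were lower in KO without overlap. The log2 fold change was below 0 for 10 of 10 genes under AngII and for 9 of 10 under saline, against 45.1% and 45.6% of all genes. Its median over the 10 was -0.51 under AngII and -0.42 under saline, against 0.04 and 0.05 over all genes.

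**Figure D4:**
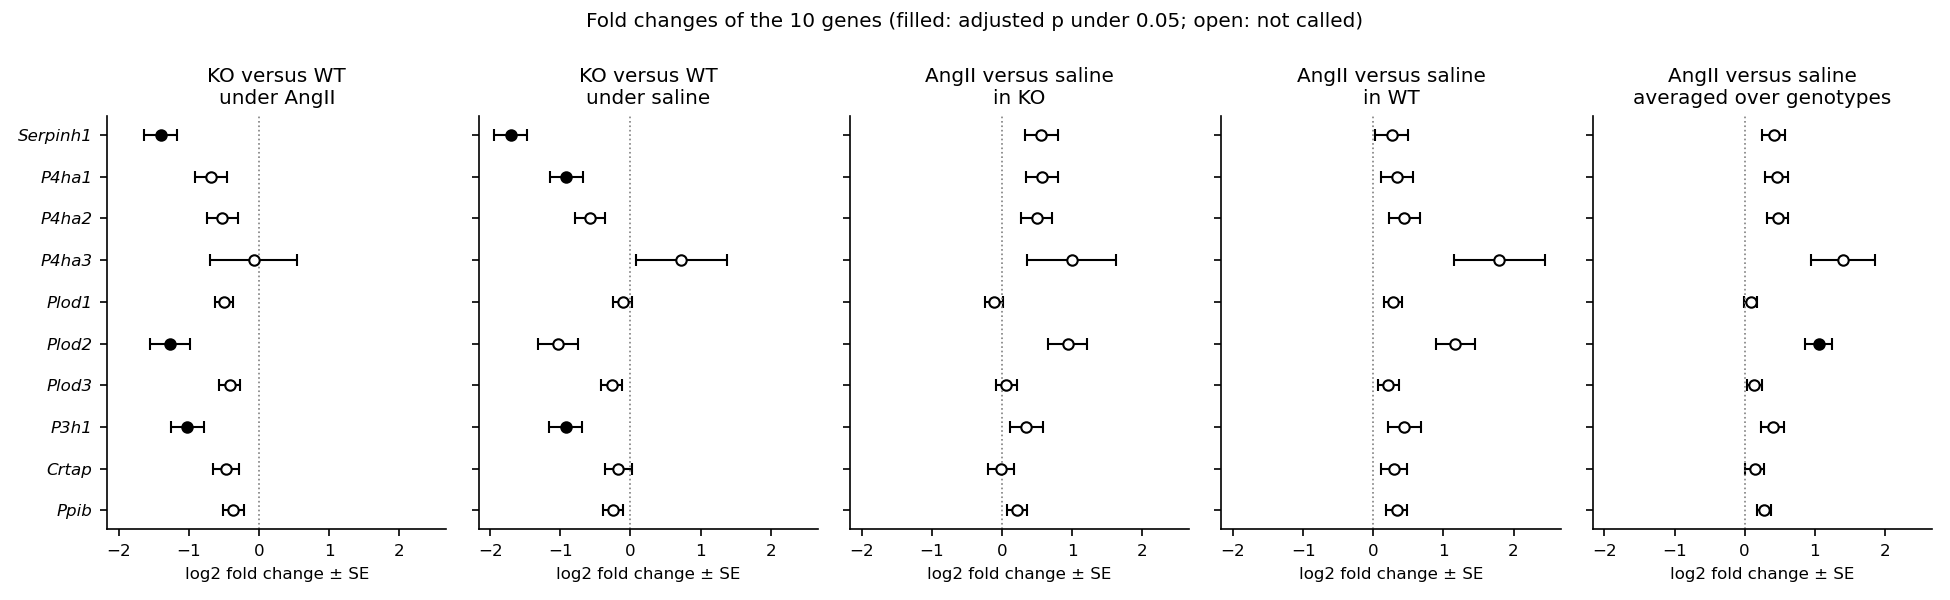
Log2 fold change with its SE (x axis) of each gene (y axis) in 4 comparisons of groups and for AngII averaged over the genotypes, where filled points have an adjusted p under 0.05. The filled points are Serpinh1, Plod2 and P3h1 for KO against WT under AngII, Serpinh1, P4ha1 and P3h1 under saline, and Plod2 for AngII averaged over genotypes.

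For AngII against saline edgeR called 0 of the 10 genes in KO aortae and 0 in WT aortae, where 0.0501% and 0.444% of all genes were called in either direction. At an unadjusted p under 0.05 there were 4 of the 10 in KO and 3 in WT, against 19.2% and 8.80% of all genes. DESeq2 called 1 of the 10 in each, Plod2. Over all 15984 genes DESeq2 called 483 higher and 251 lower in KO, and 222 higher and 58 lower in WT. By limma voom Plod2 was called in KO and 0 of the 10 in WT. Over all genes limma voom called 300 higher and 261 lower in KO, and 151 higher and 103 lower in WT. AngII libraries lay above saline libraries without overlap for 1 gene in KO (Plod2) and for 2 in WT (P4ha2 and Plod2), against 4.25% and 3.67% of all genes. Averaged over genotypes 1 gene was called higher, Plod2, where 0.857% of all genes were called higher. At an unadjusted p under 0.05 by edgeR there were 7 of the 10, against 15.1% of all genes. The averaged log2 fold change was above 0 for 10 of 10 genes, with a median of 0.40 over the 10 against 0.00 over all genes. The interaction was called for 0 of the 10 genes and for 0.0188% of all genes, and 0 of the 10 had an unadjusted p under 0.05, against 11.2% of all genes. DESeq2 and limma voom also called 0 of the 10.

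A wider list of 22 genes, all tested, held further collagen-modifying proteins of the ER. It also held genes of ER retrieval, vesicle transport, transcription and secretion that are not particular to collagen folding. This list had more members called lower than higher in KO. Under AngII 4 were called lower in KO than in WT and 0 higher, where 1.03% of all genes were called lower. They were Sparc, a collagen-binding secreted glycoprotein, and Kdelr3, a receptor that returns proteins to the ER. The others were Creb3l1, a transcription factor of collagen-making cells, and Fkbp10, a collagen prolyl isomerase. Sparc had 3273 ± 446 CPM in KO AngII, against 10011 ± 2255 CPM in WT AngII aortae (log2 fold change -1.61, SE 0.26, adjusted p = 0.00525 by edgeR). Under saline 3 were called lower and 0 higher, where 1.78% of all genes were called lower. These were Colgalt1, a galactosyltransferase for hydroxylysine, Sparc, and Sec23a, a coat protein of vesicles that leave the ER. Colgalt1 had 63.2 ± 7.31 CPM in KO saline, against 114 ± 22.5 CPM in WT saline aortae (-0.85, SE 0.18, adjusted p = 0.0224 by edgeR). The median log2 fold change of the 22 was -0.61 under AngII and -0.60 under saline, against 0.04 and 0.05 over all genes. For AngII averaged over genotypes 1 was called higher, Sec23a (0.46, SE 0.10, adjusted p = 0.0351 by edgeR), where 0.857% of all genes were called higher. The median was 0.36 over the list, against 0.00 over all genes.

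The fibrillar collagen chains, the substrates of these enzymes, were a list of 9 of which 8 were tested. Under AngII 4 were called lower in KO and 0 higher, Col5a2, Col1a2, Col5a1 and Col1a1, where 1.03% of all genes were called lower. Col1a1 had 2031 ± 724 CPM in KO AngII, against 6384 ± 3439 CPM in WT AngII aortae (log2 fold change -1.65, SE 0.41, adjusted p = 0.0499 by edgeR). Under saline 1 was called lower, Col5a1, with 196 ± 46.9 CPM in KO saline, against 488 ± 151 CPM in WT saline aortae (-1.31, SE 0.31, adjusted p = 0.0384 by edgeR). Of all genes, 1.78% were called lower under saline. The median over the 8 was -1.33 under AngII and -1.22 under saline. With AngII averaged over genotypes Col5a2 was called higher (1.03, SE 0.23, adjusted p = 0.0462 by edgeR), the 1 called gene of the list, where 0.857% of all genes were called higher.

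General chaperones and unfolded protein response genes of the ER, a list of 18 all tested, had 3 members called lower in KO under AngII (Pdia6, Dnajc3 and Creld2) and 5 under saline (Hspa5, Creld2, Hyou1, Dnajc3 and Pdia6). None was called higher in either comparison. Of all genes, 1.03% were called lower under AngII and 1.78% under saline. Hspa5, which encodes the main ER chaperone BiP, had 254 ± 11.4 CPM in KO saline, against 486 ± 68.6 CPM in WT saline aortae (log2 fold change -0.94, SE 0.18, adjusted p = 0.0151 by edgeR). The median over the 18 was -0.51 under both infusions. For AngII averaged over genotypes edgeR called 0 of the 18, with 6 at an unadjusted p under 0.05, against 15.1% of all genes, and a median of 0.17.

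Markers of the cell types in and around the vessel were set beside these genes. Of 7 fibroblast markers, 1 (Col15a1, a basement membrane collagen) was called lower in KO under both infusions and 0 were called higher. Of all genes, 1.03% were called lower under AngII and 1.78% under saline. Under AngII 6 of the 7 had a log2 fold change below 0, 5 of them at an unadjusted p under 0.05 (17.9% of all genes). Their median was -0.74. Under saline 5 of the 7 markers were below 0 and 2 had an unadjusted p under 0.05 (21.8% of all genes), with a median of -0.26. Their summed level was 1772 to 2535 CPM in KO AngII, against 2323 to 5133 CPM in WT AngII libraries, and 1863 to 2730 CPM in KO saline, against 1799 to 3139 CPM in WT saline libraries. Of 7 smooth muscle markers edgeR called 0 in any comparison. In KO against WT under saline 7 of 7 had a log2 fold change below 0, 6 of them at an unadjusted p under 0.05 (21.8% of all genes), with a median of -0.96, while under AngII the median was -0.13. The summed level of these markers was 5508 to 16214 CPM in KO AngII, against 11579 to 17099 CPM in WT AngII libraries, and 8427 to 11273 CPM in KO saline, against 7715 to 20901 CPM in WT saline libraries. No marker of either list was at 0 in any library. Of 7 macrophage markers edgeR called 0 in KO against WT, while under AngII 7 of 7 had an unadjusted p under 0.05 (17.9% of all genes) and the median log2 fold change was -0.90. Their sum was 157 to 223 CPM in KO AngII, against 211 to 547 CPM in WT AngII libraries. General adipocyte markers summed to 3512 to 8035 CPM in KO AngII, against 2176 to 5424 CPM in WT AngII libraries. Under saline their sum was 4476 to 11156 CPM in KO, against 1403 to 8212 CPM in WT libraries. Of these 5 markers Lep was called higher in KO under AngII, where 159 of the 15984 genes tested were called higher.

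Of 5 brown adipocyte markers edgeR called 0 in any comparison. For KO against WT, 1 of these markers had an unadjusted p under 0.05 under saline (21.8% of all genes) and 0 under AngII (17.9%). Their summed level was 416 to 2742 CPM in KO AngII, against 503 to 2474 CPM in WT AngII libraries, and 1400.4 to 6885 CPM in KO saline, against 263 to 4140 CPM in WT saline libraries. The library with the highest sum in a group also had the lowest Serpinh1 level of that group in KO AngII (library 1), KO saline (library 1), WT AngII (library 2) and WT saline (library 2). Of 6 endothelial markers edgeR called 0 in any comparison. Between genotypes 1 of these markers had an unadjusted p under 0.05 under AngII (17.9% of all genes) and 1 under saline (21.8%). Their log2 fold change was above 0 for 6 of 6 in KO against WT under both infusions, with medians of 0.50 under AngII and 0.49 under saline. Their sum was 726 to 1815 CPM in KO AngII, against 601 to 1182 CPM in WT AngII libraries, and 834 to 1955 CPM in KO saline, against 897 to 1146 CPM in WT saline libraries.

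Markers of neurons and chromaffin cells summed to 3038 CPM in KO AngII library 4 and to at most 182 CPM in every other library. Skeletal muscle markers summed to 380 CPM in KO saline library 3 and to at most 22.0 CPM in the others. Of those 6 neuron and chromaffin markers, Chgb and Prph were called higher in KO under AngII, where 159 of the 15984 genes tested were called higher. They had 156 and 662 CPM in KO AngII library 4. In the other KO AngII libraries Chgb had 0.273 to 26.5 CPM and Prph 1.26 to 30.3 CPM. The part of all these markers in the lower levels of the 10 genes in KO was not tested. With KO saline library 1 and KO AngII library 4 both left out, Serpinh1 alone of the 10 genes was called between genotypes, with log2 fold changes of -1.50 under AngII and -1.63 under saline.

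Gene length also moved with the comparisons. Over 15797 genes with an annotated length, Spearman's rho of the log2 fold change with exon length was 0.101 for KO against WT under AngII and -0.276 under saline. It was 0.338 for AngII against saline in KO and -0.111 in WT. These are descriptions across genes, which are not independent replicates, and their part in the values above was not tested. Serpinh1 has a summed exon length of 2443 bases, Plod2 of 5392, P4ha1 of 4114 and P3h1 of 3846 bases.

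Levels of the 10 genes were correlated over the libraries. Pearson's r of log2 CPM over the 16 libraries was above 0 for 45 of 45 pairs, from 0.178 to 0.932 with a median of 0.77. After group means were removed it was still above 0 for 45 of 45 pairs, with a median of 0.67. All pairs share the libraries and their scaling. The same measures were not computed for pairs of other genes, so these values do not set the 10 genes apart.

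The 5 genes outside the set that were most like Serpinh1 over the 16 libraries were Rnps1 (r = 0.951), Col4a1 (0.947), Pdia6 (0.942), Dubr (0.938) and Map3k10 (0.938). Rnps1 had 127 to 250 reads in KO and 544 to 737 in WT libraries, while its near-identical copy Rnps1-ps had 177 to 379 reads in KO and 0 to 21 in WT libraries. The split of reads between these copies thus differed by genotype. Plod2 was most like Col5a2 (0.973), Sec61a1 (0.971), Colgalt1 (0.970), Col6a3 (0.966) and Fkbp14 (0.965). P4ha1 was most like Nol9 (0.918), Nudcd1 (0.906), Mgat1 (0.904), P2ry2 (0.903) and Lrrc59 (0.903). Ppib was most like Asah1 (0.964), Mgat2 (0.956), Plpp5 (0.954), Ostc (0.948) and Fkbp14 (0.947). All these values are the highest among the tested genes outside the set. Group means were not removed, so differences between the groups enter them.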

How the data were processed

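Suprarenal aortae of male mice were sequenced after poly-A enrichment, with 4 libraries in each of 4 groups, and groups and replicate numbers were taken from the sample titles. The authors deposited 1 table of unnormalized integer read counts for each gene and library. The submitters' processing notes name the build GRCm39 and the tools DESeq2 1.20.0, featureCounts 1.5.0-p3 and HISAT2 2.0.5. No source used here gives the annotation release, the strand setting or the handling of multiply mapped reads. Whether the replicates are separate animals is given only by the label of biological replicate, and p-values measure the spread between these libraries.

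The counts were tested with edgeR 4.0.16 in R 4.3.3 (filterByExpr, TMM, glmQLFit and glmQLFTest, all 16 libraries, 1 mean per group, 12 residual degrees of freedom), with Benjamini-Hochberg adjustment over 15984 genes and a threshold of 0.05. The filter removed 13711 rows. The SE of a log2 fold change was its size divided by the square root of F. Total counts were 13284804 to 21643548 reads. The precision also depended on the spread between libraries, with a common coefficient of variation beyond counting noise of 35.3%. Exon lengths came from an annotation on GRCm38, which is not the authors' build, so levels between genes are approximate and no coordinates of counted genes are printed. Near-identical copies were searched with BLAST+ 2.17.0 at 90% identity over 200 bases. The procedure was tested on simulated counts for KO against WT under saline, with 15727 genes tested. Of 100 genes changed by 1 on the log2 scale 58% were recovered, and of 100 genes changed by 2 87% were recovered. The changed genes were drawn from the more abundant genes, and no effects shared by the genes of a library were simulated. These rates therefore need not hold for low genes such as P4ha3, or for the real libraries.

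The 10 genes and the other lists were chosen with earlier results of these data known. All 10 genes are named. Of each pathway list the genes called in a comparison are named, at most 4 in order of p except in a count of 5 or fewer, and, where none is called, the 2 with the lowest p for AngII averaged over genotypes. Cell type markers, a separate list, are given as counts and summed levels, with called markers named. Alternatives were RLE scaling, no count filter, a stricter filter (1 CPM in 4 libraries), DESeq2, limma voom with quality weights, a replicate block, mitochondrial genes left out, only the groups compared, each library left out, and KO saline library 1 and KO AngII library 4 left out together.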

Additional observations from a re-analysis of the deposited data

How the results depend on the processing

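KO saline library 1, with Vamp8 in the WT range, and KO AngII library 4, with high neuron and chromaffin markers, are called the doubted libraries here. The directions of the Serpinh1 differences between genotypes held under all 25 alternatives, and their calls under 24 of 25 for AngII and 25 of 25 for saline. The other calls depended on the setting. Of the 10 genes, the number called for KO against WT under AngII was 3 as reported, 0 with only the groups compared, 1 (Serpinh1) with both doubted libraries left out, and 1 to 4 with single libraries left out. Under saline it was 3 as reported and 5 by limma voom, where 1663 of the 15984 genes passed as lower, against 284 by edgeR. The number of the 10 genes under saline was 1 (Serpinh1) with both doubted libraries left out, and 1 to 4 with single libraries left out. For AngII against saline in KO it was 0 as reported and 1 (Plod2) by DESeq2 and by limma voom. For AngII against saline in WT it was 0 as reported, 1 (Plod2) by DESeq2, and 0 to 1 with single libraries left out. Averaged over genotypes it was 1 as reported and 2 (P4ha3 and Plod2) by DESeq2. Over all genes DESeq2 put 463 higher in that average, against 137 by edgeR. Of the 10 genes, 0 were called in that average with both doubted libraries left out, and 0 to 2 with single libraries left out. Fewer samples entered the fits that left libraries out, and for the other changes the cause was not tested.

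Signs turned for the following fold changes, none of them called as reported. Crtap for AngII in KO was -0.01 as reported, 0.025 without a count filter, 0.17 by limma voom, 0.17 with both doubted libraries left out, and -0.11 to 0.10 with single libraries left out. P4ha3 for KO against WT under AngII was -0.08 as reported, 0.59 by limma voom, 0.055 with the replicate block, and -0.43 to 0.64 with single libraries left out. The interactions by limma voom were 0.031 for Plod2, 0.16 for P3h1, 0.064 for Crtap and 0.047 for Ppib, against -0.23, -0.10, -0.30 and -0.12 as reported. The P4ha2 interaction was 0.05 as reported and -0.092 with both doubted libraries left out. With single libraries left out, interactions ranged over -0.10 to 0.24 for P4ha2, -0.41 to 0.10 for Plod2 and -0.28 to 0.084 for P3h1.

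Of 24 correlations between same-numbered libraries, taken on their deviations from the group means, 8 were above 0.1 (range -0.42 to 0.44). Differently numbered libraries were not compared, so these values cannot decide whether same-numbered libraries are paired. With the replicate block, 2 genes were called under AngII (Serpinh1 and Plod2), 2 under saline (Serpinh1 and P4ha1) and 1 (Plod2) for AngII averaged over genotypes. Over all genes the tools differed widely: for KO against WT under saline edgeR called 197 genes higher and 284 lower, where 1534 passed as higher and 1663 as lower by limma voom. With single libraries left out, 56 to 736 were called higher and 49 to 1008 lower, both lowest without WT saline library 1 and highest without WT saline library 2. Under AngII, against 159 higher and 165 lower as reported, the ranges were 52 to 561 and 48 to 284, both lowest without WT AngII library 3 and highest without KO AngII library 3. For AngII in KO edgeR called 0 higher and 8 lower, where DESeq2 called 483 higher and 251 lower. P4ha3 had 11 to 234 reads per library, the lowest depth among the 10 genes.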

Other observations

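Hypoxia-inducible genes, a list of 18 tested genes, were also measured. Of the 18, 1 was called lower in KO under saline, the glucose transporter Slc2a1, where 1.78% of all genes were called lower. Slc2a1 had 20.1 ± 2.86 CPM in KO saline, against 34.8 ± 6.78 CPM in WT saline aortae (log2 fold change -0.79, SE 0.19, adjusted p = 0.0410 by edgeR). Under AngII edgeR called 0 of the 18, with 4 at an unadjusted p under 0.05, against 17.9% of all genes. Between KO and WT the list had a median log2 fold change of 0.24 under AngII and 0.51 under saline. The summed level of the 18 was highest in KO saline library 1, at 10967 CPM, which also had the highest sum of brown adipocyte markers, at 6885 CPM. In WT saline libraries both sums were highest in library 2, at 6129 and 4140 CPM, and lowest in library 4, at 1753 and 263 CPM. The part of the brown adipocyte markers in the list's values was not tested.

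The make-up of the prolyl 4-hydroxylase alpha subunits depended on the length used to compare them. By summed exon length P4ha1 made up 66.6 ± 4.04% of the 3 genes in KO AngII and 67.0 ± 3.74% in KO saline libraries, against 70.0 ± 5.16% in WT AngII and 73.5 ± 5.78% in WT saline libraries. By median transcript length it made up 28.6 ± 2.31% and 27.9 ± 3.28% in KO, against 30.8 ± 4.09% and 33.1 ± 6.21% in WT libraries, with P4ha2 the largest share in each group. Which of P4ha1 and P4ha2 is the more abundant can therefore not be read from these counts.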
